A study of Mus musculus with 6 samples.

Results

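Wild-type double negative 3 (DN3) thymocytes of the mouse are described here by the level, the rank and the spread of their transcripts, with no comparison of genotypes. The members are the 4 libraries of wild-type (WT) mice, chosen by the genotype label, out of 6 RNA-seq libraries in the series. The remaining 2 libraries came from mice with a knockout of Tcf7 and were not used. All mice had a C57BL/6 background, each library came from a separate mouse, and the labels used here give no age. WT 1, WT 2 and WT 3 were female and WT 4 was male. Cells of the thymus were sorted by flow cytometry as positive for CD25 and negative for CD44, CD3, the T-cell receptor (TCR) β chain, CD8, NK1.1 and CD1d tetramer binding. Their RNA was amplified with a kit for small amounts of input. Levels are given in TPM, a unit in which the reads of a gene are divided by its length and every library is scaled to the same total. TPM allows different genes of 1 library to be set side by side. Unless single libraries are named, a value is the mean over the 4 WT mice ± the SD between them (n = 4).

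DN3 is the stage of thymocyte development at which the cells have committed to the T lineage and rearrange the genes of the TCR β, γ and δ chains. A β chain that reads in frame pairs with the invariant pre-TCRα chain and with CD3 proteins as the pre-TCR, whose signal allows the cell to survive, divide and move on to the CD4 and CD8 double-positive stage. Notch receptors on the thymocyte, cytokine signals through the interleukin 7 receptor, E-protein transcription factors and the factor TCF-1, the product of Tcf7, maintain the programme of the stage. The stage holds cells at rest that are still rearranging as well as larger dividing cells that have passed the β-chain checkpoint.

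The libraries held 23711513 to 41666797 counts over 26332 genes, and 15788 to 16013 genes had at least 1 count in a library. WT 4, the only male, stood apart from the other 3 libraries. Across 12114 genes, Pearson's r of log2(TPM + 1) was 0.994 to 0.995 between female libraries and 0.988 to 0.989 between WT 4 and each female. Differences in counts, as a chi-square statistic per degree of freedom, were 3.37 to 5.11 among the females and 15.9 to 23.1 for pairs with WT 4. No pair agreed within sampling noise, so each library counted as 1 sample. Xist, the RNA that coats the inactive X chromosome, stood at 121, 169 and 164 TPM in the females and at 0.0180 TPM in WT 4, as the sex labels require.

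The 5 genes by which DN3 cells are commonly recognised were all abundant. Tcf7 (Entrez 21414, chromosome 11, 52246527 to 52283383 of GRCm38) was measured at 2338, 2309, 2319 and 2144 TPM in WT 1 to WT 4, a mean of 2277 ± 89.9 and rank 37 of all genes. Il2ra, which encodes CD25, the surface protein used to sort the cells, was at 941, 926, 906 and 1096 TPM, a mean of 967 ± 87.3 and rank 94. Rag1, a subunit of the recombinase that cuts antigen-receptor genes, was at 649, 591, 617 and 507 TPM, a mean of 591 ± 60.8 and rank 190. In each of these genes WT 4 lay outside the range of the females, below them in Tcf7 and Rag1 and above them in Il2ra. Ptcra, the gene of the pre-TCRα chain, was at 476, 456, 467 and 498 TPM, a mean of 474 ± 18.2 and rank 278. Notch3, a receptor of the Notch pathway, was at 346, 337, 334 and 406 TPM, a mean of 356 ± 33.7 and rank 412. The order from Tcf7 to Notch3 held in every library, and no neighbours in it had ranges that overlapped. The label of the cells was checked against these markers, and all 5 were present in every library. The length by which reads are divided bears on levels set side by side between genes. With the longest coding length of each gene in GENCODE M21 in place of the deposited gene length, the means would be 3039 TPM for Tcf7, 2888 for Il2ra, 685 for Rag1, 534 for Ptcra and 220 for Notch3. The order of the means was the same, but Il2ra moved 2.99-fold. Of 282 named genes with a coding length, 47 moved up and 49 moved down by more than 1.5-fold, so ratios between genes below are given with their value by coding length where it differs by more than that.

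The starts of 4 of these marker genes are printed to show how unlike their promoters are in sequence. The windows run from 250 bases before to 50 bases after the RefSeq transcription start in GRCm38.p6 and read 5′ to 3′ on the strand of the gene. Capitals mark CANNTG, the E-box core to which E proteins such as the products of Tcf3 and Tcf12 can bind. The motif reads the same on both strands. Tcf7 is not printed because the RefSeq table lists more than 1 start for it.
Il2ra (chr2:11642542-11642841, plus strand): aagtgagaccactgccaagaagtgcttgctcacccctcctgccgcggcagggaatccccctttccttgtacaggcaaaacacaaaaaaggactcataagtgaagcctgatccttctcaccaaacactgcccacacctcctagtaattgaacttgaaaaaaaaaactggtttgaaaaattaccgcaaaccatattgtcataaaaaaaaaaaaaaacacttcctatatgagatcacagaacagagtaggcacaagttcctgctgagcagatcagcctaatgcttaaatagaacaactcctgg
Rag1 (chr2:101649483-101649782, minus strand): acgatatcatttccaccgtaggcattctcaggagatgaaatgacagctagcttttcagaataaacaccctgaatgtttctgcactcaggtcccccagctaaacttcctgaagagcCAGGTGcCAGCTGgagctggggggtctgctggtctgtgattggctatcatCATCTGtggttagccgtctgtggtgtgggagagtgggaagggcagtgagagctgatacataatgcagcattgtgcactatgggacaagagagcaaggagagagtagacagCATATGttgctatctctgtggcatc
Ptcra (chr17:46763663-46763962, minus strand): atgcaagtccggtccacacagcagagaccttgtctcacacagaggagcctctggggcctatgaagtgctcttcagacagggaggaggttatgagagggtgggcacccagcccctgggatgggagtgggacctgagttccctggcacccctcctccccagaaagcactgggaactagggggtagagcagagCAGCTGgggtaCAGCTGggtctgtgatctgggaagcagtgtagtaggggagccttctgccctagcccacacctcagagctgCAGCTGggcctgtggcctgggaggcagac
Notch3 (chr17:32166841-32167140, minus strand): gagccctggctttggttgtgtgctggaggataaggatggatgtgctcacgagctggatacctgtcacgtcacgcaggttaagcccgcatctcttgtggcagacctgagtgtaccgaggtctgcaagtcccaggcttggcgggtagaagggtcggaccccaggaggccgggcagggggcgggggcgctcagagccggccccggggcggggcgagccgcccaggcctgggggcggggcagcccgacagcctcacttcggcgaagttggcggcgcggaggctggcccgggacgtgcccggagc
The Rag1 window held 4 matches to CANNTG and the Ptcra window 3, all 3 spelled CAGCTG, while the Il2ra and Notch3 windows held none. Of 16784 promoters of protein-coding genes in the table, taken at the first listed start of each gene, 68.6% held at least 1 match, so a match is common. The windows also differed in CpG content, measured as the observed number of CG pairs divided by the number that the base composition would give. Ptcra had 1 CG pair and a ratio of 0.0357, Rag1 had 3 and 0.165, and Il2ra had 3 and 0.231. Notch3 had 25 and a ratio of 0.706.

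Transcripts of the sort-gate genes followed the gate only in part, because several proteins that the gate excludes from the surface had abundant RNA. Cd3g, a CD3 chain, was at 3114, 3088, 2984 and 3529 TPM in WT 1 to WT 4, rank 20. Cd3d averaged 1049 ± 59.3 TPM, Cd3e 920 ± 26.4 and Cd247, the ζ signalling chain, 121 ± 4.62. The TCR β constant genes Trbc2 and Trbc1 were at 1683 ± 51.1 and 1063 ± 58.8 TPM. The cells were sorted as negative for surface CD3 and TCR β. Cd3g, Trbc2 and Trbc1 had higher means than Il2ra, and Cd247 had a lower one. By coding length Cd3g (3228 TPM) stayed above Il2ra (2888), but Trbc2 (916) and Trbc1 (577) fell below it. The order of Il2ra and the TCR β constant genes therefore depends on the length used. The ranges of Trbc1 and Cd3d, of Cd3d and Il2ra, and of Il2ra and Cd3e overlapped, so their order was not fixed. Cd44, the adhesion receptor that marks earlier stages, was at 0.653, 0.723, 0.761 and 0.498 TPM, from 68, 43, 49 and 35 counts. Klrb1c, which encodes NK1.1, had 5, 3, 1 and 1 counts and is near the limit of detection. As a scale for such levels, 3 counts correspond to 0.0798 to 0.140 TPM for a gene of median length. Kit, the stem cell factor receptor of earlier thymocytes, was at 28.7 ± 1.39 TPM.

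Co-receptor transcripts were low and differed between mice. Cd8b1 was at 10.7, 8.06 and 8.87 TPM in the females and 2.56 TPM in WT 4. Cd8a was at 2.65, 2.19 and 2.72 TPM in the females and 0.514 TPM in WT 4, and Cd4 at 1.60, 1.78 and 1.93 TPM against 0.546 TPM. WT 4 was the lowest library for all 3. In bulk RNA, fewer cells that carry a transcript and less RNA per cell cannot be told apart.

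**Figure D1:**
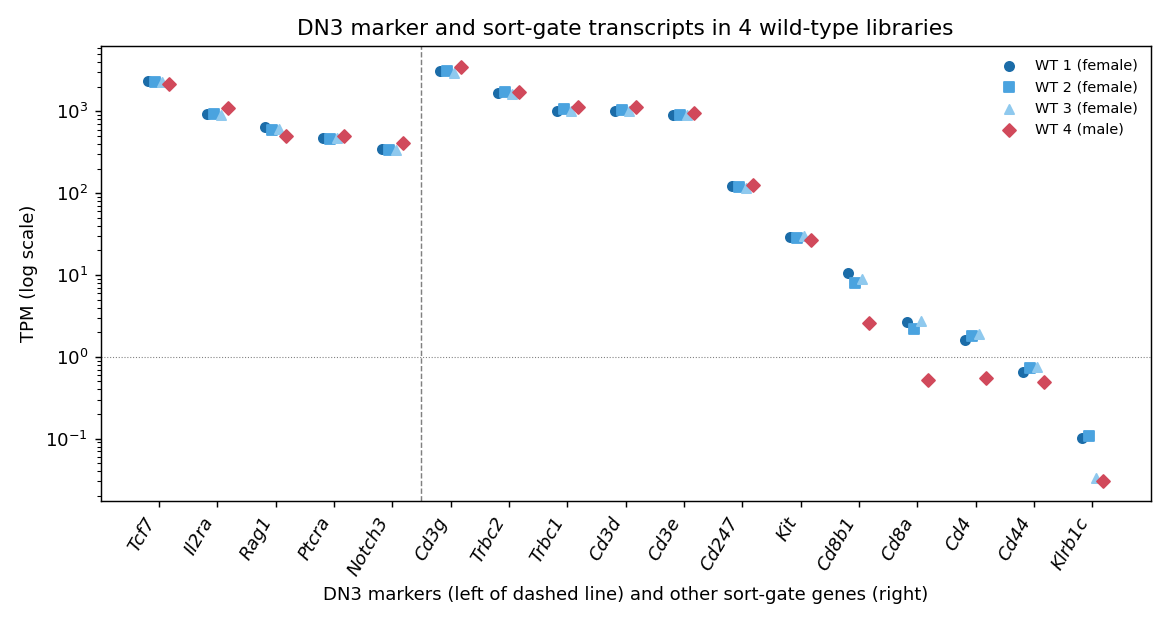
TPM on a log axis of the 5 DN3 markers (left of the dashed line) and of the other sort-gate genes (right), with 1 point for each of the 4 wild-type libraries; the dotted line is 1 TPM. All 5 markers lie at 334 TPM or more in every library, and so do the CD3 and TCR β transcripts other than Cd247, while Cd44 and Klrb1c lie under 1 TPM.

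Over the whole table, 12114 genes (46.0%) had a mean of at least 1 TPM, and 11672 of them reached 1 TPM in every library. Without WT 4 the first count was 12092. A level of 10 TPM was reached by 8978 genes (34.1%), 100 TPM by 2151 (8.17%) and 1000 TPM by 90 (0.342%). The 2151 genes at 100 TPM or more held 70.9% of all TPM, and the median gene above 1 TPM stood at 29.9 TPM. A further 8863 genes (33.7%) had no count in any WT library. The 100 highest genes held 24.1% ± 0.166 of all TPM.

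Translation and respiration supplied most of the highest transcripts. Among the 15 with the highest means were mt-Co1 (17162 ± 608 TPM), mt-Cytb, mt-Nd1 and mt-Nd2 of the mitochondrial genome, the elongation factors Eef1a1 (8295 ± 104) and Eef2 (3784 ± 76.2), the ribosomal protein genes Rpl8 (5407 ± 25.1), Rplp1, Rpl32, Rps15, Rps14 and Rps20, the chaperone Hsp90ab1 (4510 ± 107) and B2m (3699 ± 201), the light chain of class I antigen-presenting molecules. A small RNA, Mir682, and the pseudogenes Gm9794 and Gm11478 were as high and were passed over by name. As a class, 86 ribosomal protein genes held 6.30% ± 0.0794 of TPM, and 84 of them reached 1 TPM. The 15 genes of the mitochondrial genome held 5.14% ± 0.301, with 5.15% to 5.36% in the females and 4.72% in WT 4. Long non-coding RNA genes were numerous, but only 404 of 2077 reached 1 TPM and together they held 0.670% ± 0.0202. Pseudogenes held 5.13% ± 0.0515, with 371 of 835 at 1 TPM or more.

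T-cell genes were already among the most abundant transcripts. Cd3g, the γ-chain constant gene Trgc2 and Dntt, the polymerase that adds untemplated bases at receptor junctions, ranked near the most abundant ribosomal protein genes. In the plot of level against rank they lie at the left end of the curve, while Cd8a and Spi1 lie near 1 TPM and S1pr1 lies below it.

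**Figure D2:**
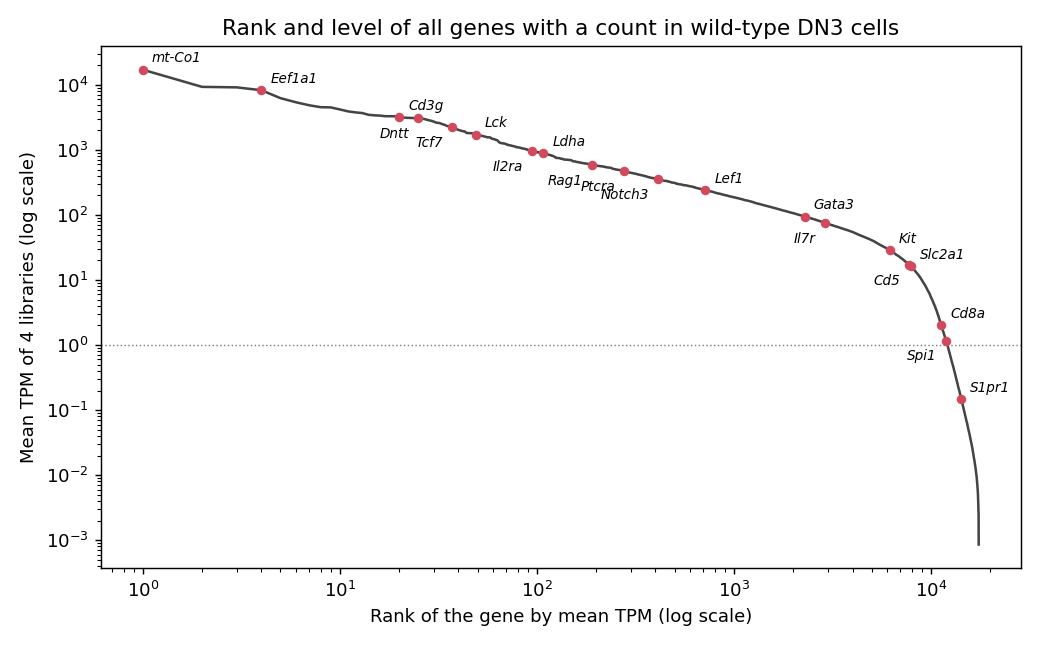
Mean TPM of the 4 wild-type libraries against the rank of each gene, both on log axes, for genes with at least 1 count; red points mark named genes and the dotted line is 1 TPM. Tcf7 is at rank 37, Il2ra at rank 94 and Notch3 at rank 412, and the curve drops steeply below about 10 TPM.

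Genes with near-copies elsewhere in the genome, pseudogenes among them, can gain or lose reads in the counting. The share of each gene's 50-base words that also occur in a transcript of another locus was therefore taken from GENCODE M21 transcripts. Among 10789 protein-coding genes at 1 TPM or more the median share was 0%, and 122 genes (1.13%) shared at least 50%. Gapdh, the glycolytic enzyme often used as a reference, read only 13.5, 20.4, 14.5 and 25.1 TPM and shared 24.7% of its words. Pgk1 read 18.2 ± 0.175 TPM and shared 53.9%. Of the mitochondrial genes, mt-Co2, mt-Co3, mt-Atp6, mt-Nd3 and mt-Nd4l shared 98.0% to 100%, mt-Nd4 shared 62.2% and mt-Co1, the highest gene of all, 51.1%, while mt-Cytb and mt-Nd1 shared none. Among 84 ribosomal protein genes at 1 TPM or more the median share was 19.8%, and 5 of them shared at least 50%. The part of shared sequence in all these levels was not tested, and these genes are less certain than the rest.

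Among lineage genes, the chains of the pre-TCR and of the γδ TCR were high as a group. All 12 genes of the list were above 1 TPM, 11 were above 100 TPM, and their sum was 15342 ± 491 TPM. Trgc2 was at 3040 ± 52.0 TPM, Trgc1 at 1825 ± 35.5, Trgc4 at 1336 ± 28.5 and the δ constant gene Trdc at 647 ± 40.7. The α constant gene Trac, whose locus rearranges at the double-positive stage, was the exception at 6.07 ± 1.18 TPM. Trbc2 exceeded Trac 214 to 369 times in the 4 libraries, and 127 times in the mean by coding length. The constant genes of the β chain are near-identical copies that shared 44.0% (Trbc2) and 40.5% (Trbc1) of their words, so the split between them is uncertain. Counts over constant genes do not separate rearranged transcripts from germline ones.

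Recombination genes followed the same stage. All 14 genes of the list were above 1 TPM. Dntt was at 3057 ± 47.6 TPM, rank 25, with a coefficient of variation (CV, the SD divided by the mean) of 1.56% over the 4 mice. Rag2, the partner of Rag1, stood at 66.2 ± 3.35 TPM, so the ratio of Rag1 to Rag2 was 9.59, 8.58, 9.22 and 8.28 in WT 1 to WT 4. Of the end-joining genes, Xrcc6, which encodes Ku70, was at 579 ± 9.95 TPM and its partner Xrcc5 at 74.7 ± 4.62. The DNA-bending proteins Hmgb1 and Hmgb2, cofactors of the recombinase, were at 207 ± 7.61 and 73.1 ± 5.97 TPM. The nuclease gene Dclre1c, which opens hairpin ends, was the lowest of the list at 9.03 ± 0.746 TPM.

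Transcription factors of the T lineage were broadly present, with 24 of 25 above 1 TPM and a median of 123 TPM. Next to Tcf7 stood Myb (564 ± 12.6 TPM), Ets1 (487 ± 40.0), the Notch target Hes1 (381 ± 35.3) and the E-protein gene Tcf3 (303 ± 15.6), which encodes E2A. Zbtb7b, the factor of the later CD4 lineage choice, was at 0.0372 ± 0.0430 TPM. Lef1, the relative of Tcf7, had 244 ± 32.9 TPM, and Tcf7 exceeded it 8.57 to 10.9 times. Bcl11b, the commitment factor, was at 290 ± 11.4 TPM, Gata3 at 94.7 ± 1.76 and Runx1 at 158 ± 1.13.

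The E-protein genes Tcf3 and Tcf12 were higher than the genes of their Id inhibitors, and Tcf4 was not. Tcf3 and Tcf12, which encodes HEB, were at 303 ± 15.6 and 297 ± 20.1 TPM, with overlapping ranges and a ratio of 1.00 to 1.04 in every library, which became 0.775 by coding length. Tcf4, which encodes E2-2, was at 24.2 ± 0.969 TPM, below Id3 and in the range of Id2. Among the inhibitors, which lack a DNA-binding region, Id3 was at 81.5 ± 11.3 TPM and Id2 at 23.2 ± 2.46, while Id1 was at 2.27 ± 0.464 and Id4 had no count. The ratio of Tcf3 to Id3 was 3.24 to 3.67 in the females and 4.94 in WT 4. Lyl1, Lmo2 and Tal1, the early haematopoietic partners of E proteins, were all under 1 TPM, at 0.372, 0.272 and 0.0963.

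Factors of earlier progenitors were detected in part. Of 17 genes, 8 (47.1%) reached 1 TPM, near the 46.0% of all genes, 5 reached 10 TPM and none reached 100 TPM. The highest were Erg (36.8 ± 6.74 TPM), Kit, Nfe2 (27.1 ± 3.81), Mycn (18.7 ± 3.23) and Hoxa7 (16.5 ± 1.91). Spi1, which encodes PU.1 and has to be silenced for T-lineage commitment, was at 1.17 ± 0.517 TPM. The markers Cd34 (0.139 ± 0.177), Flt3 (0.0314 ± 0.0453) and Meis1 (0.0329 ± 0.00961), the last 2 being a cytokine receptor and a homeobox factor of stem and progenitor cells, were near the limit of detection.

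Genes of T-cell surface proteins covered a wide range of levels. All 16 genes of that list were above 1 TPM. Ly6d led at 1946 ± 215 TPM, followed by Thy1 (1805 ± 36.3) and Cd24a (915 ± 23.5), and Ptprc, which encodes CD45, was at 379 ± 22.3. Cd5, a gauge of receptor signalling, was at 17.2 ± 0.311 TPM, Cd2 at 2.70 ± 0.797 and Cd7 at 2.32 ± 0.667. Genes of later stages were uneven. Of the 11 double-positive genes, Aqp11 (447 ± 17.4 TPM), Arpp21 (114 ± 4.77), Ccr9 (78.1 ± 6.88), Mns1 (74.4 ± 4.52) and Cd1d1 (48.2 ± 5.33) were already present, whereas Slc7a11 stood at 0.708 ± 0.0705. Of the 13 mature T-cell genes, Gimap6 (91.9 ± 1.77) and Il7r (76.3 ± 2.35) were among the highest. Klf2, which drives exit from the thymus, was at 3.67 ± 0.715 TPM and its target S1pr1 at 0.149 ± 0.0824.

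Genes of γδ T cells other than the receptor chains were present in part. The factor Sox13 was at 56.6 ± 3.96 TPM, the scavenger receptor Scart2 at 65.8 ± 18.3, Cd163l1 (also Scart1) at 26.5 ± 4.52, the kinase Blk at 18.8 ± 0.842 and Maf at 5.88 ± 1.23. Zbtb16, the factor of innate-like T cells, was at 0.0132 ± 0.0176 TPM, and Il17a and Il23r had no count. Scart2 differed between mice, with a mean of 56.6 TPM in the females and 93.3 TPM in WT 4.

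Markers of other cell types were checked for cells that the gate could have admitted, and most lists had defining members at or near 0. Of 14 B-cell markers, 5 reached 1 TPM. These were Ighm (318 ± 23.6 TPM), the μ heavy chain gene, Cd79b (88.9 ± 6.59), Vpreb1 (5.38 ± 1.66), Vpreb3 (2.26 ± 0.438) and Igkc (1.60 ± 2.32). Ms4a1 and Pax5 had no count. Of 13 markers of natural killer and innate lymphoid cells only Gzma (599 ± 73.0) and Nkg7 (165 ± 21.5) reached 1 TPM, both cytotoxic granule genes, with Ncr1 at 0.104 ± 0.0770 and Eomes at 0.0258 ± 0.0279. Of 12 dendritic-cell markers 4 did, namely Bst2 (541 ± 21.7), Ccr9, H2-Ab1 (13.3 ± 2.45) and Irf8 (9.95 ± 0.818), and Siglech had no count.

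By summed TPM the myeloid, red-cell and stromal lists were lower still. Lyz2 (37.4 ± 1.91 TPM), Cd68 (5.02 ± 1.69) and Ccr2 (1.86 ± 0.333) were the 3 of 12 macrophage genes above 1 TPM, with Csf1r at 0.0507 ± 0.0776. S100a9 (1.08 ± 1.34) was the only one of 10 neutrophil genes there, and Elane, Cxcr2 and Ly6g had no count. Of 11 thymic epithelial genes, Epcam (168 ± 5.69), Cldn4 (28.5 ± 4.79), Ccl25 (4.15 ± 0.756) and Aire (1.12 ± 0.601) passed, while Krt5, Krt14 and Foxn1 had no count. Pecam1 (76.9 ± 1.99) and Pdgfrb (26.9 ± 1.11) were the 2 of 12 fibroblast and endothelial genes above 1 TPM, and 5 collagen, matrix and receptor genes of that list had no count. Of 8 erythroid genes 4 (50%) reached 1 TPM, a larger share than in the B-cell list (35.7%). Haemoglobin transcripts were few, with Hbb-bs at 16.9, 18.8 and 26.4 TPM in the females and 5.80 TPM in WT 4. Summed over each list, the range across the 4 libraries was 388 to 429 TPM for B-cell genes, 689 to 797 for natural killer genes, 623 to 666 for dendritic-cell genes and 42.7 to 51.6 for macrophage genes. Neutrophil genes summed to 0.603 to 5.37 TPM, epithelial genes to 196 to 204, fibroblast and endothelial genes to 102 to 109, and erythroid genes to 12.9 to 52.7. The sums of the B-cell, natural killer, dendritic-cell and epithelial lists came mostly from Ighm, Gzma, Bst2 and Epcam, the highest member of each.

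Signalling genes began with the Notch pathway, which had 25 of 26 members above 1 TPM and a median of 25.9 TPM. The receptors were ordered Notch1 (542 ± 37.6 TPM), Notch3, Notch2 (17.7 ± 0.675) and Notch4 (0.328 ± 0.0780), without overlap. Notch1 exceeded Notch3 by 1.47 to 1.58 times. Of the targets, Hes1 and Dtx1 (148 ± 4.76 TPM) were the highest and Hey1 was at 1.07 ± 0.494. The glycosyltransferase genes Mfng and Lfng, which tune the binding of ligands, were at 103 ± 2.36 and 50.4 ± 2.77 TPM, and Rbpj, the DNA-binding partner of cleaved Notch, at 27.8 ± 1.81.

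The kinases and adaptors downstream of the pre-TCR were all present, 27 of 27 above 1 TPM, with a sum of 5670 ± 156 TPM. Lck, the proximal kinase, was at 1722 ± 33.9 TPM and exceeded its relative Fyn (55.6 ± 3.41) by 29.1 to 32.9 times, or 19.9 times by coding length. The scaffold Lat was at 1050 ± 69.1 TPM and Csk, the inhibitor of Lck, at 316 ± 5.54. Zap70 and Syk, the kinases that bind the CD3 and ζ chains, were at 79.1 ± 1.75 and 43.4 ± 1.18 TPM, a ratio of 1.72 to 1.90. By coding length the ratio was 0.768, so the order of these 2 kinases depends on the length used. Themis, an adaptor of thymocytes, was at 223 ± 10.1 TPM.

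Cytokine receptors varied over a wide range. After Il2ra came Ifngr1 (469 ± 23.0 TPM), the common γ chain Il2rg (217 ± 9.66), Il17ra (116 ± 1.12) and Il27ra (88.8 ± 3.75). Il2rb, which high-affinity signalling by interleukin 2 needs beside CD25, was at 0.732 ± 0.222 TPM. Il6ra, Il18r1 and Flt3 were the other members under 1 TPM. Il7r, the receptor of the cytokine that sustains thymocytes, stood at 76.3 ± 2.35 TPM, and Il2rg exceeded it 2.67 to 3.04 times, or 1.78 times by coding length. All 19 JAK, STAT and SOCS genes were above 1 TPM, led by Jak1 (226 ± 7.0), the feedback inhibitor Socs1 (164 ± 6.34), Stat5b (146 ± 7.19) and Stat5a (126 ± 2.19).

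Other signalling lists were close to complete. All 26 PI3K, AKT and mTOR genes were above 1 TPM, with Eif4ebp2 (297 ± 10.6 TPM), Pik3cd, the leukocyte catalytic subunit (240 ± 24.8), Akt1 (239 ± 4.99) and Rheb among the highest. Akt1 exceeded Akt2 by 2.73 to 2.76 times, an almost fixed proportion. All 22 MAP kinase genes passed, with Map2k2 (152 ± 3.24) and the phosphatase gene Dusp2 (129 ± 36.6) among the highest. Of 17 NF-κB genes 16 passed, led by the inhibitor Nfkbie (154 ± 2.00) and by Rela (98.6 ± 3.24), with Bcl3 at 0.194 ± 0.0933. Of 19 Wnt pathway genes 18 passed, led by Tle5 (691 ± 9.31), Csnk1a1 (586 ± 6.08), the corepressor Tle3 (298 ± 19.5) and Ctnnb1, which encodes β-catenin (266 ± 19.1). Frizzled receptors were low, with Fzd7 at 2.42 ± 0.426 TPM.

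Survival genes, chemokine receptors and inducible genes completed the signalling lists. Of the BCL2 family Mcl1 led at 235 ± 25.3 TPM, before Bax (143 ± 8.91) and Bak1 (102 ± 4.67), and it exceeded Bcl2 by 4.54 to 6.32 times, or 1.66 times by coding length. Cxcr4, the receptor that binds CXCL12 of thymic stroma, was at 207 ± 56.0 TPM. Interferon-stimulated genes were low apart from Bst2, Ifitm2 (163 ± 15.8) and Ifi27 (146 ± 5.49), with a median of 13.9 TPM over 18 genes. Immediate-early genes, which signalling induces without new protein synthesis, were led by Junb (328 ± 103 TPM), Myc (314 ± 30.8), Jund (303 ± 30.4) and Jun (252 ± 111). Their summed level was 1647, 1711, 1481 and 1960 TPM in WT 1 to WT 4. WT 4 was the highest, and the median CV of the list, 16.9%, was above the 6.40% of all genes at 1 TPM or more, the minimum also used for the members of the list.

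**Figure D3:**
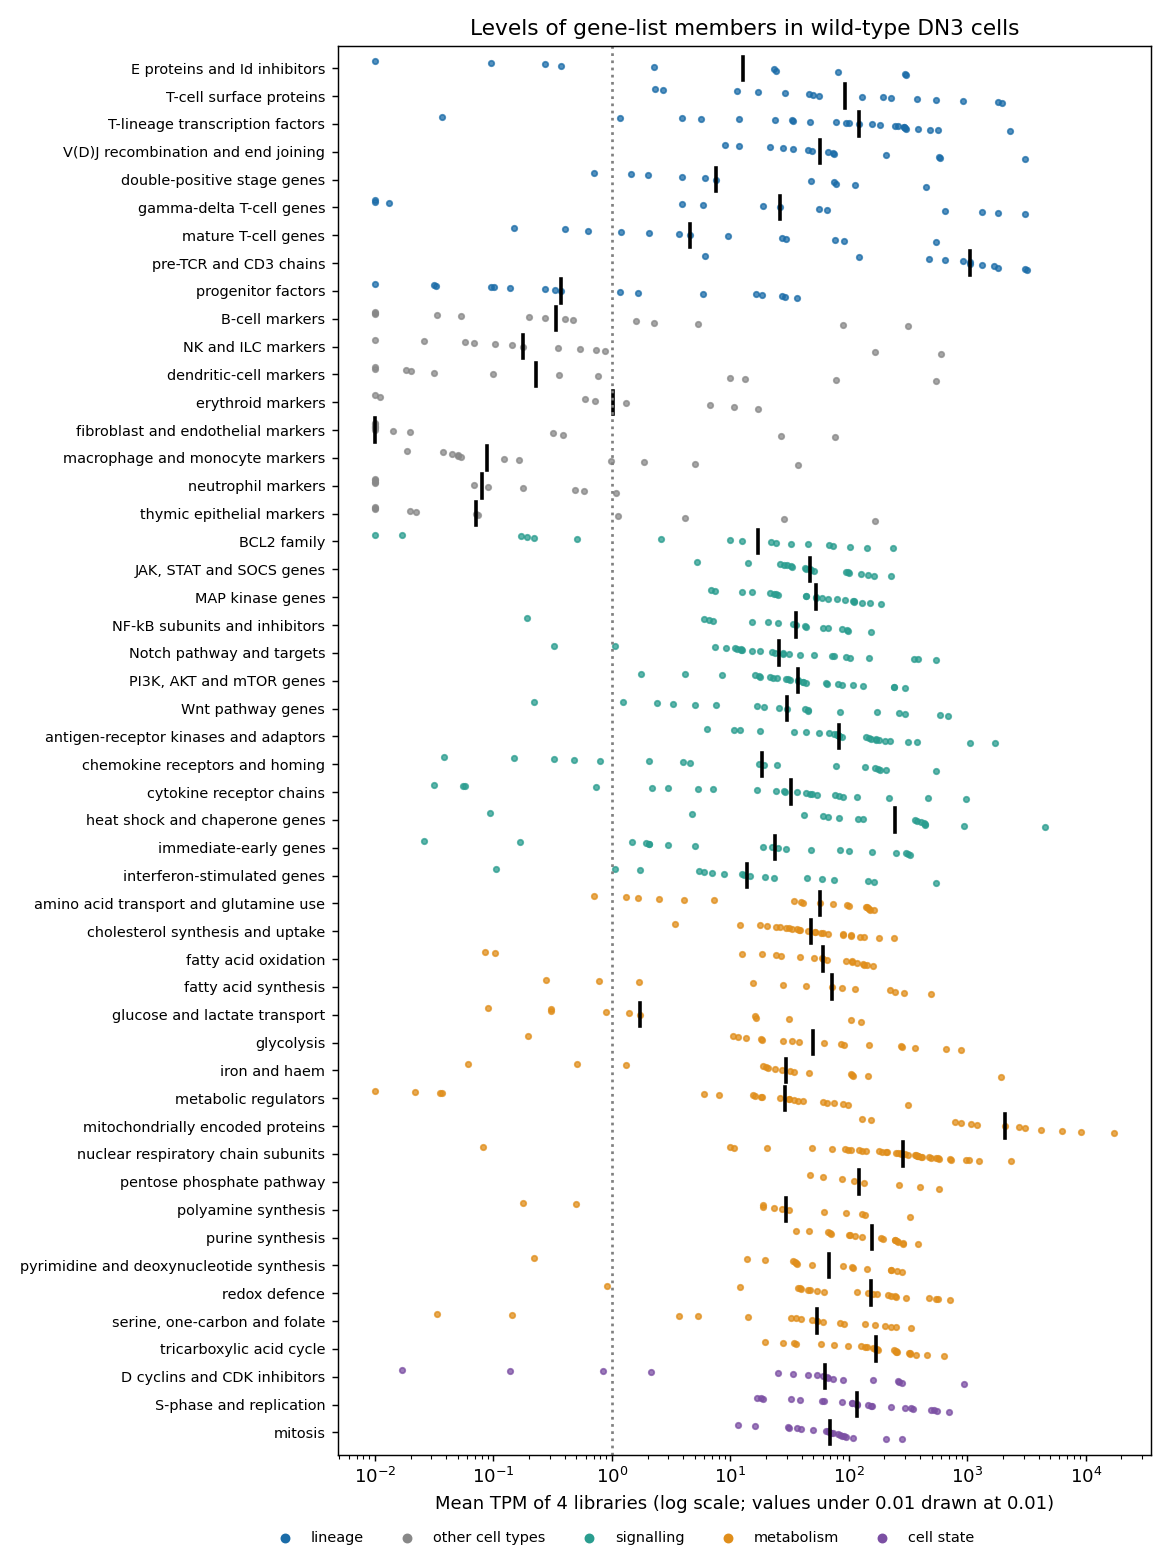
Mean TPM over the 4 wild-type libraries, on a log axis, of the members of each gene list (points, coloured by category) with the median of the list (black bar); the dotted line is 1 TPM. Signalling, metabolic and cell-cycle lists lie mostly above 10 TPM, and the lists of other cell types lie mostly below 1 TPM.

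Metabolic genes were led by oxidative phosphorylation. Of 40 nuclear subunits of the respiratory chain 39 were above 1 TPM and 32 above 100 TPM, with a median of 287 TPM and a sum of 15699 ± 316. The ATP synthase genes Atp5b (2340 ± 61.9), Atp5a1 (1259 ± 36.1) and Atp5g3 (1024 ± 31.3) were the highest, followed by Cox4i1 (981 ± 11.9) and Atp5e (733 ± 19.6). Cox4i2, the isoform of lung, was at 0.0816 ± 0.0596 TPM. The ratio of Atp5b to Atp5a1, both subunits of the ATP synthase, was 1.84 to 1.89. The 13 mitochondrially encoded proteins summed to 48965 ± 2976 TPM. All 24 genes of the tricarboxylic acid cycle were above 10 TPM, with a median of 169 TPM, led by Mdh2 (632 ± 19.5), Idh2 (453 ± 18.1) and Sdhb (367 ± 17.6), with Sdha at 326 ± 7.56.

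Glycolytic genes were present with low transporter levels. Of 18 genes 17 were above 10 TPM and their sum was 3024 ± 155 TPM. Ldha, the lactate dehydrogenase subunit of glycolytic cells, was at 890 ± 64.4 TPM, Pkm at 656 ± 27.7, Tpi1 at 363 ± 32.9, Aldoa at 284 ± 17.0 and Gpi1 at 274 ± 3.67. Ldha exceeded Ldhb by 5.50 to 6.33 times. Among hexokinases, Hk1 exceeded Hk2 by 7.32 to 8.62 times and Hk3 was at 0.196 ± 0.0277 TPM. The glucose transporter genes Slc2a1 (16.2 ± 0.724) and Slc2a3 (16.4 ± 0.891) were at one level, with a ratio of Slc2a3 to Slc2a1 of 0.895 to 1.11, or 1.57 by coding length. The lactate transporter Slc16a1 was at 138, 131 and 143 TPM in the females and 93.3 TPM in WT 4, and exceeded Slc16a3 by 66.4 to 117 times, or 150.3 times by coding length. The pyruvate carrier subunits Mpc2 and Mpc1 were at 104 ± 3.57 and 31.6 ± 0.896 TPM. Gapdh and Pgk1 entered the sum of the list as counted, whatever reads their copies hold.

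Biosynthetic genes of the pentose phosphate and nucleotide pathways were almost wholly above 10 TPM. Of 20 serine, one-carbon and folate genes, 16 were. All 8 pentose phosphate genes passed, led by Tkt (580 ± 8.54 TPM) and Taldo1 (399 ± 7.59), with the entry enzyme G6pdx the lowest at 47.2 ± 2.81. All 18 purine genes passed, with Paics (386 ± 12.4), Prps2 (289 ± 12.7) and Impdh1 (285 ± 7.81) at the top, and Prps2 exceeded Prps1 by 2.06 to 2.33 times, or 4.09 times by coding length. Of 16 pyrimidine and deoxynucleotide genes 15 passed, led by the ribonucleotide reductase subunit Rrm1 (280 ± 25), Dut and Rrm2. The exception, Samhd1, which degrades deoxynucleotides, was at 0.222 ± 0.0281 TPM. Serine and one-carbon enzymes were led by mitochondrial Shmt2 (336 ± 19.3), Phgdh (249 ± 3.79), Mat2a and Psat1 (201 ± 16.7), with Gldc and Aldh1l2 under 1 TPM.

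Lipid genes differed widely between related enzymes. Scd2, a desaturase, was at 496 ± 33.8 TPM, 279 to 310 times the level of Scd1, and Scd3 was at 0.280 ± 0.145. Fads2 (291 ± 4.72), Acly (246 ± 4.28), Elovl5 (222 ± 6.24) and Fasn (112 ± 5.66) followed. All 26 genes of cholesterol synthesis and uptake were above 1 TPM and 25 above 10 TPM, with the regulator Srebf2 (239 ± 5.90), Dhcr7 and Hmgcs1 among the highest. Of 19 fatty acid oxidation genes 17 were above 10 TPM, with Hadh at 160 ± 1.56 TPM and Cpt1a at 107 ± 5.42, whereas Cpt1b and Cpt1c, the forms of muscle and brain, were at 0.104 ± 0.0501 and 0.0847 ± 0.0785 TPM. The glutamine transporter genes Slc38a2 and Slc38a1 were at 165 ± 4.60 and 147 ± 3.92 TPM.

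Redox genes had the lowest median CV of all lists, 2.05%. The 22 redox genes summed to 4466 ± 20.9 TPM, led by Prdx2 (719 ± 7.17), Gpx1 (561 ± 18.7), Sod1 (540 ± 8.81) and Txn1 (478 ± 10.9). Nqo1, an inducible target of the stress factor NRF2, was at 0.912 ± 0.126 TPM. The ferritin heavy chain Fth1 was at 1928 ± 39.6 TPM and the light chain Ftl1 at 145 ± 8.38. Srm (328 ± 15.8), Oaz1 (136 ± 0.320) and Odc1 (129 ± 11.6) led polyamine synthesis. The transcribed pseudogene Oaz1-ps read 1262 TPM, above Oaz1 itself, so the level of Oaz1 is uncertain. Of 22 regulators of metabolism Myc was the highest, followed by Pdk1 (98.9 ± 4.49), which restrains entry of pyruvate into the mitochondrion, and Hif1a (89.8 ± 5.79). Ppargc1a, Ppara and Prkaa2, factors of tissues with high oxidative demand, were at 0.0370, 0.0217 and 0.0353 TPM, and Pdk4 had no count.

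Cell-cycle genes were expressed throughout. All 23 S-phase genes were above 10 TPM, led by Mcm6 (703 ± 28.5 TPM), Uhrf1 (550 ± 16), Pcna (520 ± 28.5), Mcm7 (492 ± 20.001) and Mcm3 (351 ± 24.4). All 20 mitosis genes were above 10 TPM, led by Top2a (279 ± 30.9), Ube2c (206 ± 39.8), Mki67 (108 ± 12.2), Cdc20 (94.9 ± 13.7) and Ccnb2 (90.8 ± 12.1). Of the D cyclins and their kinases, Cdk4 was at 931 ± 12.4 TPM, 3.15 to 3.42 times Cdk6 (1.95 times by coding length), and Ccnd3, the D cyclin needed for expansion after the β-chain checkpoint, at 267 ± 26.3. Ccnd2 was at 161 ± 4.13 TPM, below Ccnd3, but by coding length the ratio of Ccnd3 to Ccnd2 was 0.644. The D cyclin Ccnd1 was at 2.14 ± 0.208 TPM. The inhibitor gene Cdkn2a was at 0.138 ± 0.0673 TPM.

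Spread between mice was small for most genes. Among 8827 genes with a mean of at least 10 TPM and 100 counts in every library the median CV was 5.03%, with 2.06% at the 10th and 11.4% at the 90th percentile. Only 19 of them had a CV above 30%, and in 12 of these WT 4 was the highest library. edgeR's biological coefficient of variation had a median of 0.0691 over 12400 genes, and of 0.0399 without WT 4. The most variable genes were the stress chaperones Hspa1a, at 36.6, 40.2, 29.6 and 135 TPM, and Hspa1b, at 51.6, 59.0, 43.2 and 177 TPM. They are near-identical copies that shared 60.3% and 62.3% of their words. WT 4 was the highest in both, as it was in Jun (201, 230, 165 and 414 TPM) and in Ppp1r15a, a gene of the integrated stress response (50.7, 58.6, 48.8 and 118).

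Other variable genes showed other orders of the libraries. Lars2, the mitochondrial leucyl-tRNA synthetase, was at 91.7, 455, 119 and 305 TPM, so WT 2 was the highest and WT 4 the next. The same order held in Gm9234, a pseudogene (53.9, 168, 39.4 and 157 TPM). Malat1, an abundant nuclear RNA, was at 83.0, 159, 149 and 36.0 TPM. WT 4 was the lowest there and in H19, an imprinted non-coding RNA (725, 707, 678 and 309 TPM). The RNA-binding protein gene Igf2bp3, known from fetal tissue, was at 22.2, 20.8, 21.5 and 5.54 TPM, again lowest in WT 4. The short genes mt-Atp8 (1108, 791, 879 and 402 TPM) and mt-Nd4l (138, 180, 222 and 78.6 TPM) were lowest in WT 4 as well. Rps13 (24.7, 24.4, 22.6 and 60.04 TPM), the class I gene H2-Q7 (42.3, 44.3, 40.7 and 82.6 TPM), the pseudogene Gm8451 and the 60-base J segment Trgj2 were highest in WT 4. Oaz1 was the steadiest gene, with a CV of 0.2343%. The part that reads shared with the pseudogene Oaz1-ps have in this value was not tested.

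**Figure D4:**
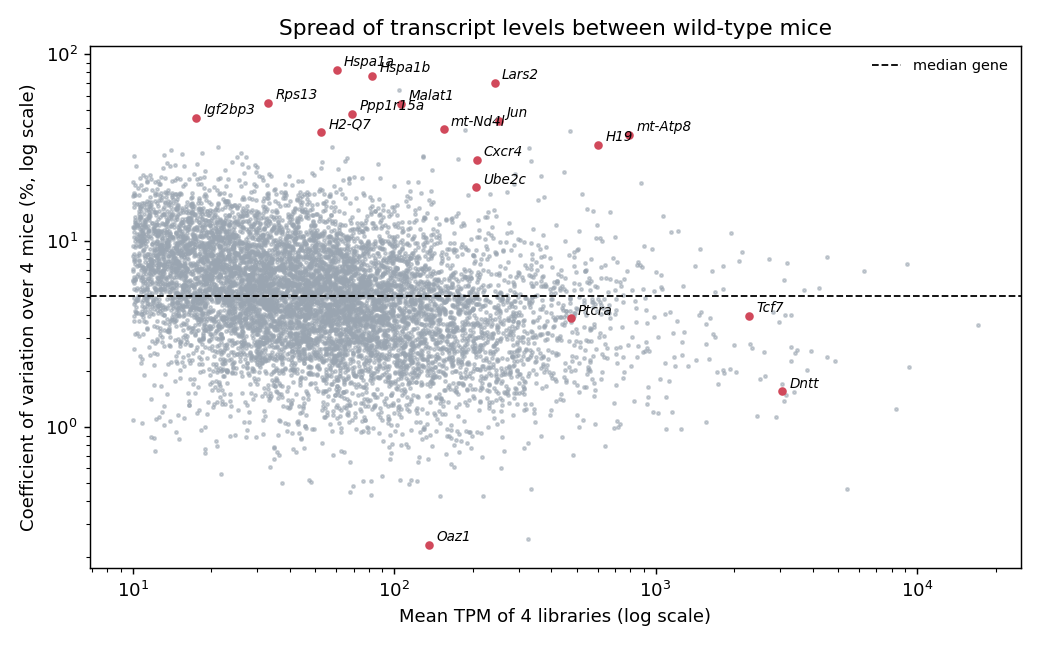
Coefficient of variation over the 4 wild-type mice (%, log axis) against mean TPM (log axis) for 8827 genes; red points are named genes and the dashed line is the median of 5.03%. Hspa1a, Hspa1b and Lars2 lie at 70.1% or more, Tcf7, Ptcra and Dntt lie below the median, and Oaz1 lies lowest.

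Sex was the only labelled difference among the WT mice, and with 1 male its effect and that of the individual mouse cannot be told apart. No replicate stands behind the male value, and the spread in the test comes from the 3 females alone, so the calls compare this library with them and not the sexes. edgeR's quasi-likelihood test of WT 4 against the 3 females called 2499 of 13392 genes (18.7%) at a Benjamini-Hochberg adjusted p under 0.05, 1259 higher (9.4%) and 1240 lower (9.26%) in the male. DESeq2 called 1274 of the 11034 genes to which it gave an adjusted p. Few changes were large, with 45 genes at least 2-fold higher and 33 at least 2-fold lower. The 4 smallest p-values belonged to the Y-linked genes Eif2s3y, Ddx3y, Kdm5d and Uty. The next was H19, lower by a log2 fold change of -1.20 ± 0.044 (SE; adjusted p = 4.37e-20), then Igf2bp3 (-1.97 ± 0.097; adjusted p = 1.14e-16) and Cxcr4 (-0.92 ± 0.049; adjusted p = 2.44e-15). Cxcr4 averaged 234 TPM in the females and stood at 124 TPM in WT 4. Gm2223 and Kdm6a on the X chromosome were lower and Scart2 was higher. Of 442 genes of the X chromosome 34 were higher and 50 lower, and 18.6% of the genes of the chromosomes other than X and Y were called.

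Of the lineage, signalling, metabolic and cell-cycle lists, the mitosis list was the one whose sum in WT 4 lay lowest relative to the females. All 20 mitosis genes were lower in WT 4 by the test, against 9.26% of all genes, and the median log2 fold change of the list was -0.42 against -0.004 for all genes tested. The summed TPM of the list was 1665, 1663, 1768 and 1267 in WT 1 to WT 4, a ratio of 0.746 to the female mean. Ube2c averaged 226 TPM in the females and stood at 146 TPM in WT 4. All 20 remained lower under DESeq2 and without each female in turn. Of 23 S-phase genes 15 were lower and none higher, and the summed TPM was 4734 to 4874 in the females and 4377 in WT 4. Of 16 pyrimidine and deoxynucleotide genes 9 were lower and 2 higher, of 18 purine genes 7 were lower and none higher, and of 17 glycolysis genes 6 were lower and 1 higher. Fewer S-phase, pyrimidine, purine and glycolysis genes were called lower under DESeq2, which also called fewer genes lower over the whole table. Without WT 3 the same held for the pyrimidine list. The summed TPM in WT 4 relative to the female mean was 0.890 for the pyrimidine list, 0.949 for the purine list and 0.902 for the glycolysis list.

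The male library also differed in transcripts that mark other cells and stress. The median log2 fold change in WT 4 was -0.22 for the 13 mitochondrially encoded genes and -0.27 for the 11 double-positive genes. It was -0.004 for all genes tested. The summed TPM of the double-positive list was not lower, at 794 in WT 4 and 776 to 781 in the females. Aqp11 alone held 57.1% of that sum. Cd8a, Cd8b1 and Cd4 were among the lower genes. The haemoglobin genes Hbb-bs, Hba-a1 and Hba-a2 were lower. Hspa1a was higher (edgeR log2 fold change 1.92, adjusted p = 0.0332), and Hspa1b did not pass (1.78, adjusted p = 0.0532). The part of these transcripts in the cell-cycle difference was not tested. In the opposite direction, the median log2 fold change was 0.17 for the progenitor list and 0.10 for the NF-κB list. It was 0.07 for the list of pre-TCR, CD3 and γδ TCR chains. Among the higher genes were Erg, Nfe2, Mycn and Cd34 of the progenitor list, and Cd3g, Cd3d, Trbc1 and Trdc of the receptor chains. Cd34, at a mean of 0.139 TPM over the 4 libraries, was near the limit of detection. DESeq2 gave an adjusted p to fewer progenitor genes and called fewer of them higher. Of the DN3 markers, Il2ra and Notch3 were higher, Tcf7 and Rag1 were lower and Ptcra was not called. Few redox genes and nuclear respiratory subunits were called beside the 18.7% of all genes, 1 of 22 and 2 of 39. The redox sum in WT 4 (4470 TPM) lay within the range of the females, whereas the sum of the respiratory subunits was 15228 TPM in WT 4 and 15823 to 15897 TPM in the females.

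**Figure D5:**
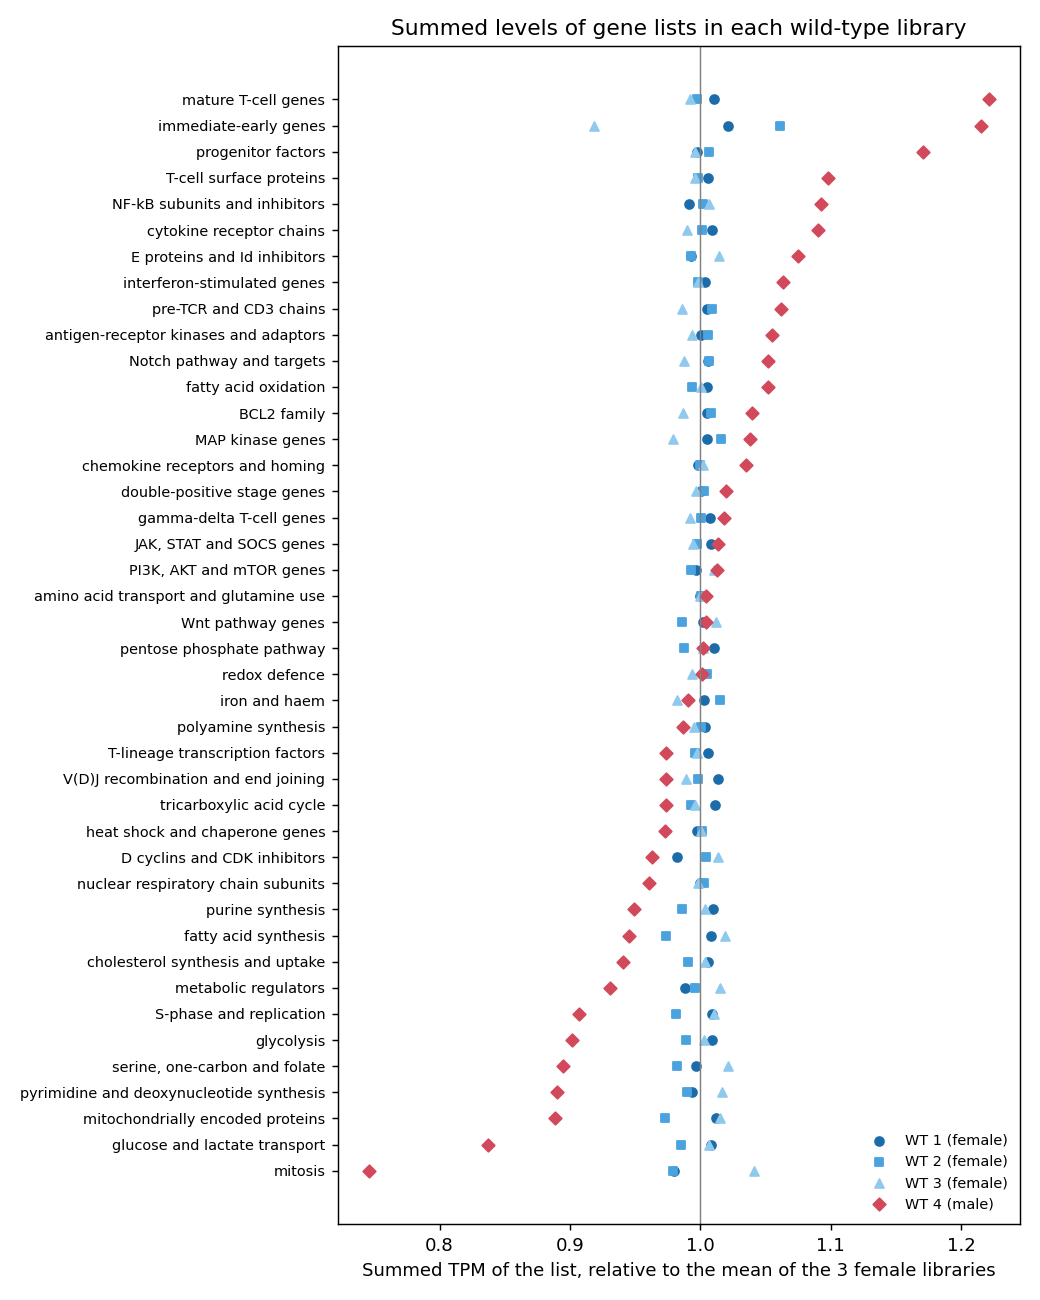
Summed TPM of the lineage, signalling, metabolic and cell-state gene lists in each wild-type library, relative to the mean of the 3 female libraries. The females lie close to 1 in most lists, the male library WT 4 lies lowest for the mitosis list (0.746), and its highest point is the mature T-cell list (1.22). The DN3 marker, sort-gate, reference and sex-linked lists and the markers of other cell types are not drawn.

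Promoter sequence was set beside level for 16784 protein-coding genes with a RefSeq promoter in the table of GRCm38.p6. Genes with several listed starts were kept, and only the first listed start of each was used, here and for the gene lists below. The median CpG ratio was 0.194 for genes with no WT count, 0.436 below 1 TPM, 0.658 from 1 to 10 TPM, 0.801 from 10 to 100 TPM and 0.837 from 100 to 1000 TPM. For the 43 genes at 1000 TPM or more it was 0.703. A ratio of at least 0.6 was found in 11.8%, 37.0%, 56.1%, 79.96%, 82.5% and 65.1% of these groups and in 49.7% of all. A TATAAA word on the strand of the gene, between 45 and 16 bases before the start, was found in 6.48% of promoters without a count and in 0.604% from 10 to 100 TPM. CANNTG was found in 77.3% of promoters without a count and 60.1% from 100 to 1000 TPM. CpG content thus differed most between genes with and without transcripts, and the E-box word was less frequent in each group with counts than in the group without.

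Gene lists differed in the CpG content of their promoters. Of all 16784 protein-coding promoters, 49.7% had a CpG ratio of at least 0.6. The CpG ratio was at least 0.6 in 28 of 28 nuclear respiratory chain promoters, 17 of 17 MAP kinase promoters, 12 of 12 Wnt pathway promoters and 16 of 17 mitosis promoters. In contrast it reached 0.6 in 0 of 5 promoters of the pre-TCR and CD3 list, where the median was 0.183, in 0 of 6 of the T-cell surface list, in 1 of 10 of the mature T-cell list and in 1 of 15 of the interferon-stimulated list. Other lists lay between these, such as the T-lineage transcription factors (12 of 17) and the DN3 markers (2 of 5). Among the 4 printed starts, Ptcra, Rag1 and Il2ra were below 0.6 and Notch3 was above it. Not every member of a list has an entry in the promoter table, so these counts cover only the members that do.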

How the data were processed

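RNA-seq libraries of 4 WT mice were used. The authors deposited unnormalised read counts for Entrez genes. Per the submitters' processing notes they used featureCounts and the mm10 build. The sources used here do not give the aligner, the versions, the strandedness or the treatment of reads with several matches, so a gene and its antisense neighbour may share reads. The deposited table also gives a length per gene. Counts were divided by that length and scaled so that every library has the same total (TPM). Gene symbols were matched by Entrez identifier in a RefSeq table of GRCm38.p6 (25275 genes) and GENCODE (18), and 1039 had none. Coordinates are those of that assembly.

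Depth was 41666797, 23711513, 25895530 and 28196671 counts in WT 1 to WT 4, so that 3 counts correspond to 0.0720, 0.127, 0.116 and 0.106 CPM. Such limits cover counting error only, since amplified reads are not independent molecules.

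Levels are descriptions. The male library was tested against the 3 females with edgeR 4.0.16 (R 4.3.3): filterByExpr by sex, TMM scaling, a robust quasi-likelihood F-test and Benjamini-Hochberg adjustment over 13392 genes. On counts simulated for that comparison, with 200 of 13392 genes changed, 81% of the 2-fold and 97% of the 4-fold changes were found, and 13 of 191 calls were false. The simulated spread was that of the 3 females, and no change below 2-fold was put in. These shares therefore do not carry over to smaller changes, which made up most of the calls. DESeq2 1.42.0 was run beside edgeR. The 54 gene lists held 914 entries, of which 2 (Hbb-bt and Ahsp) matched no gene.

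The members and lists were chosen with earlier results of these data known. Genes were named by a rule. It takes the DN3 markers and sort-gate genes, the 15 highest and the 15 most variable genes, the 10 smallest p-values of the sex test, the 5 highest members and few members under 1 TPM of each list, and any member of a list of 14 or fewer. Chosen after their values were seen were Akt2, Bcl11b, Bcl2, Ccnd1, Cd2, Cd34, Cd5, Cd7, Cpt1a, Flt3, Fyn, Fzd7, Gata3, Hey1, Hk1, Hk2, Ldhb, Lef1, Lfng, Meis1, Notch2, Oaz1, Pgk1, Prps1, Rbpj, Runx1, Spi1, Syk and Zap70, and every ratio between 2 genes. Some genes that the rule takes are not reported here.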

Additional observations from a re-analysis of the deposited data

Results flagged for a closer look

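In 40 of 316 values checked (gene levels, list sums and class shares), 1 library lay far from the other 3, with a gap to its nearest neighbour of more of the whole range than Dixon's 95% critical value for 4 samples. Chance flags about 1 in 20 groups, but the genes checked include some named for their spread or for a small p-value of WT 4 against the females, so their count is not to be read against that rate. WT 4 was the distant library in 34 of them, 17 high and 17 low.

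WT 4 was high in Tcf3 (327 TPM), the pseudogene Gm11478 (5106), Ly6d (2269), Notch3 (406), Hspa1b (177), Hspa1a (135), H2-Q7 (82.6), Csf1r (0.166), Cd79a (0.364), Tcf4 (25.6), Dusp2 (184), Pik3cd (277), Nkg7 (197), Ppp1r15a (118), Rps13 (60), Scart2 (93.3) and Cd3e (959).

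WT 4 was low in Eif4ebp2 (281 TPM), Tcf7 (2144), Hif1a (81.2), Gzma (490), Pcna (477), Ube2c (146), Sdhb (340), Srm (304), Rbpj (25.1), Igf2bp3 (5.54), Tpi1 (313), Ldha (795), H19 (309), Thy1 (1751), Kdm6a (32.7) and Gm2223 (243), and in the summed level of the nuclear respiratory chain subunits (15228).

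The remaining 6 were Rpl8 in WT 1 (high, 5445 TPM), Ppargc1a in WT 1 (high, 0.0669), Gzmb in WT 1 (high, 0.651), Cdh5 in WT 1 (low, 0.273), Rpl32 in WT 2 (high, 3608) and Mfng in WT 2 (low, 99.2). The distances in Rpl8 and Mfng were small beside their levels, since the other libraries read 5393 to 5396 and 104 TPM.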

How the results depend on the processing

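The count of genes at 1 TPM or more, 12114, was 11672 to 12170 under TMM scaling, without the mitochondrial genome, by the median, by every library, by CPM and without each library in turn. The share of TPM in the 100 highest genes, 24.1%, was 24.01% to 24.14% without each library and 21.2% without the mitochondrial genome, which removes 10 of them. The median biological coefficient of variation, 0.0691, was 0.0405 with sex as a term, 0.107 with no filter on low counts and 0.0399 to 0.0795 without each library, the lowest value being that without WT 4. The count of genes that differed between the male and the females, 2499, was 2497 with DESeq2 size factors, 2611 with no filter, 2227 to 2603 without each female and 1274 under DESeq2. The causes were not tested. Leaving out the only male gives no test. Of 307 named genes, none moved by more than the SD between mice under TMM scaling, whereas 121 of 296 moved without the mitochondrial genome, which raises every other level, and 199 of 295 moved by coding length. The coding length from GENCODE was chosen after seeing the data in place of a planned RefSeq protein length, which was not used here. No paired analysis was possible because only WT mice were compared and no replicate number is shared between their groups. Depth limits genes under about 0.1 TPM.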

Other observations

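Several abundant transcripts of other lineages lacked the partner gene with which they usually occur. Cd79b, a signalling chain of the B-cell receptor, was at 88.9 ± 6.59 TPM while its partner Cd79a was at 0.201 ± 0.110 TPM, a ratio of 267 to 623 in the 4 libraries. The granule genes Gzma and Nkg7 were present with Gzmb at 0.178 ± 0.317 and Prf1, which encodes perforin, at 0.349 ± 0.123 TPM. The adhesion gene Pecam1 was present with the endothelial receptor genes Cdh5 and Kdr at 0.386 ± 0.0759 and 0.0198 ± 0.0243 TPM. These genes were set side by side after their values were seen.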
